A study of Homo sapiens with 18 samples.

Results

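The response of DAOY aggregates to a short direct-current electrical field was read from 6 of the 18 RNA libraries of the study, the 3 collected after 2 h of field and the 3 collected without field at 0 h, which were chosen by their labels alone. DAOY is an established human line from a desmoplastic cerebellar medulloblastoma. In both groups, spheroidal aggregates (combined from 2 seeding numbers per the labels, whereas the study's methods name a single one) were embedded in a mixture of culture medium and Growth-Factor-Reduced Matrigel, left for 24 h in an electrotaxis channel, and collected by scraping. The 2 h group (time label 2 h) then received 250 V/m continuously, whereas the 0 h group (labelled control) received no field and was collected at the start. Each library came from 3 pooled channels, and the replicates sequenced were those with the best RNA quality of a larger set. Since the 0 h aggregates spent less time in the channel, the field and the additional 2 h of culture cannot be told apart. The question was which genes differed in DAOY at the earlier of the 2 exposure times.

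Electrotaxis is the directed movement of cells in an electrical field. Cells that receive a growth factor, mechanical or ionic stimulus typically transcribe immediate early genes within the first hours, a set of transcription factor genes (the FOS, JUN, EGR, IER and NR4A families, MYC) that are switched on through ERK, serum response factor and CREB without new protein synthesis. A further set includes feedback inhibitors of the same signals. Among them are DUSP phosphatases, which remove phosphate from MAP kinases, and Sprouty proteins, which restrain receptor tyrosine kinase signaling. The targets of the coactivators YAP and TAZ, which respond to mechanical load, include CYR61 (CCN1), a secreted matricellular protein, and CTGF. These lists are described first. They were chosen with earlier results of these data known, so their shares below are descriptions and not tests of the lists.

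The estimated counts of the 6 libraries summed to between 8491703 and 11508606. The library 0 h replicate 0 lay farthest from its group mean (0.507, root mean square of the log2 deviation over 15396 genes, against 0.315 to 0.423 in the other libraries), and the share of counts on mitochondrial genes was between 2.92% and 5.70% at 0 h and between 4.25% and 5.72% at 2 h. Genes of the cell cycle differed strongly between libraries of one group. MKI67, the proliferation antigen Ki-67, was at 179, 358 and 78.0 CPM in 0 h replicates 0, 1 and 2 and at 179, 72.0 and 81.3 CPM at 2 h. The libraries with the high values were therefore 0 h replicates 0 and 1 and 2 h replicate 0. Of the defining granule-lineage markers, ATOH1 was not in the table, BARHL1 was at 0 and GLI1 averaged 0.276 CPM at 0 h, whereas PAX6 (19.1 CPM), ZIC1 (12.6 CPM) and SFRP1 (60.2 CPM) were present beside the mesenchymal genes COL1A1 (1999 CPM) and FN1 (14793 CPM). Of 7 white blood cell markers, PTPRC, AIF1, CD3E, CD14 and MS4A1 were between 0 and 0.538 CPM at 0 h, whereas CD68 (18.8 CPM) and CSF1R (2.26 CPM) were present. Of 5 endothelial markers, CDH5 was at 0 CPM and VWF at 0.204 CPM at 0 h, whereas PECAM1 (22 CPM), TEK (6.71 CPM) and KDR (1.36 CPM) were present. The groups overlapped in all 5 of these genes that were present, and their source was not tested.

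No gene passed the threshold. Of 15396 gene sums tested (the estimated counts of all transcripts of a gene name added together), 0 had an FDR below 0.05 in edgeR's quasi-likelihood test, and so 0 were called when a log2 fold change of 1 or more in size was also required (0%). At an unadjusted p under 0.05 there were 424 (2.75%), of which 212 were higher (1.38%) and 212 were lower (1.38%) at 2 h. That was fewer than the 770 that uniform p-values would give, and the count was 819 without 0 h replicate 1 and 724 without 0 h replicate 2. The smallest unadjusted p was 0.000261 and the smallest adjusted p was 0.999. By DESeq2, 1 gene was called, the lower RP11-34P1, and 384 had an unadjusted p under 0.05. The changes were small for most genes, with 25th and 75th percentiles of the log2 fold change at -0.14 and 0.18 and a median of 0.00. The 95% interval of a gene reached on median 0.37 log2 units to either side above 100 CPM (2315 genes), 0.47 between 10 and 100 CPM (7199 genes) and 0.86 between 1 and 10 CPM (5295 genes), so differences of 1.29-fold, 1.39-fold and 1.82-fold are about the smallest that such an interval separates from 0 before any adjustment. All values below are therefore given as unadjusted differences between these libraries, and none is a called change.

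**Figure D1:**
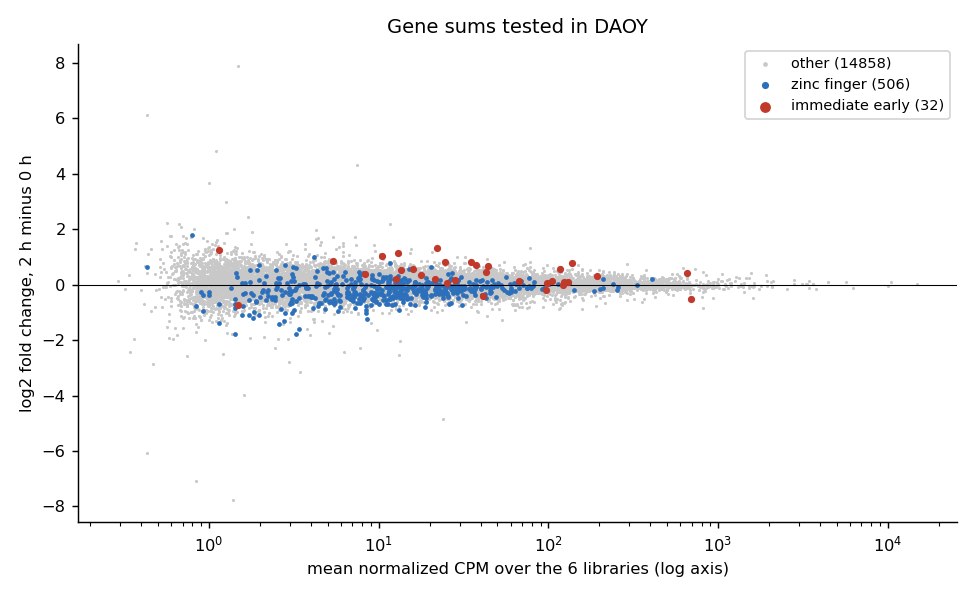
Log2 fold change (2 h minus 0 h, vertical axis) against the mean normalized CPM over the 6 libraries (horizontal log axis) for the 15396 gene sums tested in DAOY, each point 1 gene. Immediate early genes (32, red) lie mostly above 0 and genes with a zinc finger symbol (506, blue) mostly below it, and 0 genes had an FDR below 0.05.

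CYR61 stood first among the higher genes. The gene (chromosome 1, 85580761 to 85583962, plus strand, GENCODE 29 on GRCh38) was at 57.6, 35.0 and 39.7 CPM in 0 h replicates 0, 1 and 2 and at 111, 91.7 and 131 CPM at 2 h. Every 2 h library lay above every 0 h library, for a log2 fold change of 1.34 (standard error 0.28, 95% interval 0.71 to 1.96, unadjusted p = 0.000684 by edgeR's quasi-likelihood test, adjusted p = 0.999). Its direction held under all alternatives (1.18 to 1.57), which groups without overlap made likely. CYR61 passed both criteria only when no filter on low counts was applied (adjusted p = 0.00306, range over the alternatives 0.00306 to 1).

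By the same rule (no overlap between the groups, at least 1 CPM on average, a log2 fold change of at least 0.58 in size, ranked by p), 205 gene sums qualified as higher and 167 as lower. After CYR61, the leading higher gene was CSRNP1, an immediate-early nuclear protein, with 5.46, 10.8 and 10.6 CPM at 0 h and 21.3, 20.8 and 23.6 CPM at 2 h (log2 fold change 1.28, standard error 0.28). SULT1A3, a sulfotransferase of catecholamines, was at 2.05, 2.68 and 5.11 CPM and then at 8.53, 8.63 and 8.11 CPM (1.36 ± 0.32, log2 fold change ± standard error). Its near-identical copy SULT1A4 makes the assignment of those reads uncertain. KIAA0907 (chromosome 1, 155913043 to 155934400, minus strand, named KHDC4 in GENCODE 29), a KH-domain RNA-binding protein that hosts a snoRNA, went from 58.8, 49.8 and 55.9 CPM to 75.4, 88.7 and 109 CPM (0.73 ± 0.18). AMOTL2, an angiomotin that binds YAP, had 57.7, 39.4 and 70.9 CPM without field and 90.7, 114 and 93.7 CPM with it (0.83 ± 0.20).

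The other leading higher genes belonged to several pathways. SPRY4, a Sprouty inhibitor of receptor tyrosine kinase signaling, was at 25.6, 24.9 and 20.6 CPM at 0 h and at 46.7, 34.2 and 40.3 CPM at 2 h (0.77 ± 0.20). NR4A2, an orphan nuclear receptor, spread more, from 14.9, 15.1 and 7.82 CPM to 29.7, 19.4 and 45.3 CPM (1.32 ± 0.34). For PPP1R15A (GADD34), which brings a phosphatase to the translation factor eIF2α, the 0 h values were 22.9, 30.7 and 37.4 CPM and the 2 h values 62.7, 50.5 and 58.1 CPM (0.91 ± 0.24). Both NR4A2 and PPP1R15A thus had their lowest 2 h library above their highest 0 h library. LRRC8E, a subunit of volume-regulated anion channels, was at 12.7, 11.7 and 13.5 CPM and then at 28.5, 16.6 and 24.2 CPM (0.87 ± 0.22). The choline kinase CHKA (0.67 ± 0.17), the inositol trisphosphate receptor partner ITPRIP (0.64 ± 0.16) and the inositol phosphate kinase IP6K2 (0.66 ± 0.17) completed the 12, with mean levels of 17.2, 49.2 and 29.4 CPM at 0 h and 27.4, 76.7 and 46.6 CPM at 2 h. Over the 12 genes the unadjusted p went from 0.000684 to 0.00307 by edgeR's quasi-likelihood test, and each adjusted p was 0.999. None of the 12 changed direction under any alternative. The rule made this likely, since it chose genes whose groups did not overlap in these same libraries.

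**Figure D2:**
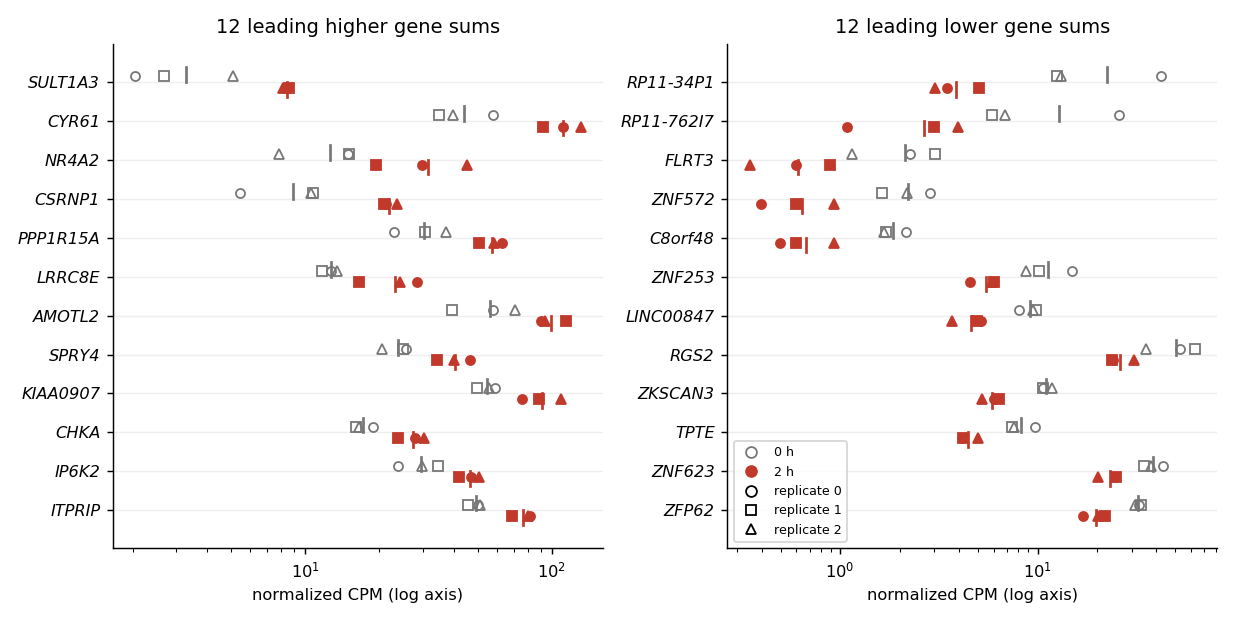
Normalized CPM (log axis) of the 12 leading higher and 12 leading lower gene sums in each of the 3 libraries at 0 h (open grey) and at 2 h (filled red), with the replicate given by the shape and the group mean by a short line. The groups do not overlap in any of the 24, which the naming rule required, and none reached an adjusted p below 0.999.

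Among immediate early genes, most members lay higher at 2 h. Of 34 listed genes, 32 were tested, 9 were higher and 1 was lower at an unadjusted p under 0.05 (28.1% and 3.12%, against 1.38% in each direction over all genes), and 0 passed the FDR. The log2 fold change was above 0 in 27 of 32 (84.4%, against 50.3% of all genes tested), with a list median of 0.37 against 0.00. A high share above 0 was also found in cytosolic ribosomal protein genes (72 of 83, median 0.15) and snoRNA host genes (12 of 13, median 0.23). In 10 members the groups did not overlap with 2 h higher (31.2%, against 3.18%), and in 2 with 2 h lower (6.25%, against 3.74%). The median deviation of the members from their own mean over the 6 libraries was -0.17, -0.19 and -0.15 on the log2 scale at 0 h and 0.17, 0.22 and 0.12 at 2 h, so the list separated the groups in every library, including the outlying 0 h replicate 0. Without that library 12 members were higher (median 0.52), and over the 6 libraries compared, leaving each out in turn gave 7 to 12 higher members and medians of 0.26 to 0.52.

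EGR1, a zinc finger transcription factor induced by serum response factor, was tightly grouped at 0 h (102, 106 and 97.9 CPM) and at 134, 224 and 168 CPM at 2 h (log2 fold change 0.78, standard error 0.28). The AP-1 subunit genes FOSL1 and JUNB were also among the 9. FOSL1 went from 28.3, 28.9 and 44.7 CPM to 60.7, 54.5 and 46.5 CPM (0.67 ± 0.20), and its lowest 2 h library was close to its highest 0 h library. JUNB had 16.6, 28.6 and 31.5 CPM and then 49.6, 48.6 and 35.6 CPM (0.80 ± 0.27). IER2, a nuclear early response protein, was at 12.4, 20.7 and 20.7 CPM without field and at 35.4, 29.7 and 29.2 CPM with it (0.80 ± 0.23). The remaining members at an unadjusted p under 0.05 were MAFF, a small MAF factor (0.72 ± 0.21), MYC (0.55 ± 0.21), NR4A1 (1.13 ± 0.41), NR4A2 and the neuronal activity gene ARC (1.26 ± 0.55). ARC was near the lower limit of the data, with 0.341, 0.813 and 0.834 CPM at 0 h and 2.48, 1.69 and 0.695 CPM at 2 h, and its groups overlapped.

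The pattern was not shared by all members. FOS itself, at 3.64, 10.9 and 6.15 CPM and then 11.6, 13.5 and 17.4 CPM, had a log2 fold change of 1.02 (standard error 0.48, unadjusted p = 0.0572 by edgeR's quasi-likelihood test), and FOSB had one of 0.86 (unadjusted p = 0.056), neither past 0.05 although their groups did not overlap. JUN was at 38.6, 42.0 and 60.0 CPM and at 36.5, 47.1 and 21.7 CPM (-0.42, unadjusted p = 0.154). ZFP36L1, which binds AU-rich elements and promotes mRNA decay, was the lower member, with 857, 863 and 706 CPM at 0 h and 584, 528 and 598 CPM at 2 h (-0.50 ± 0.14). KLF2 was also lower in every 2 h library (-0.72, unadjusted p = 0.094), whereas KLF4, KLF6, BTG1 and JUND were between -0.02 and 0.10.

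**Figure D3:**
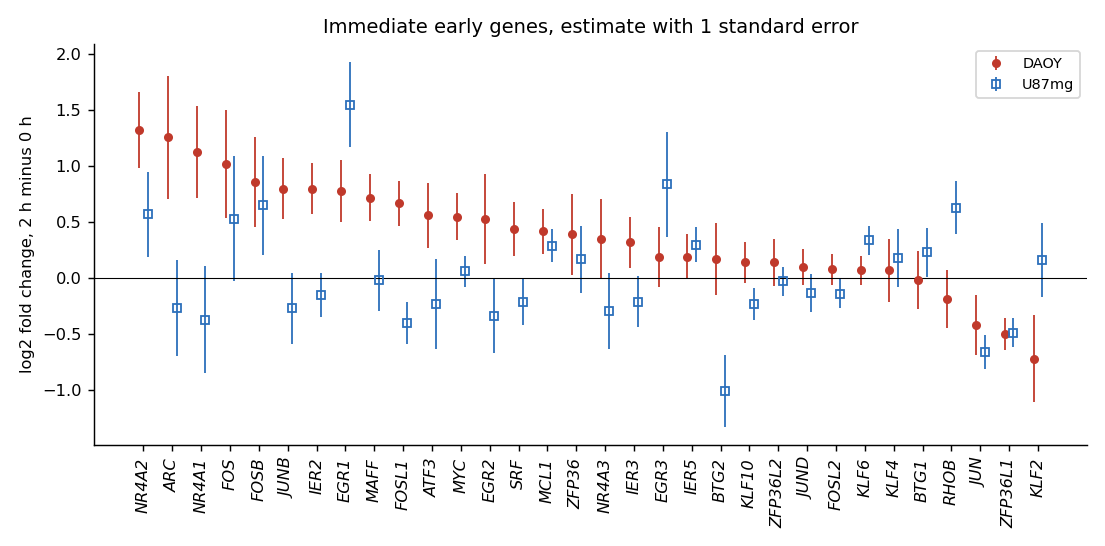
Log2 fold change (2 h minus 0 h, vertical axis) of the 32 immediate early genes tested in DAOY (filled circles) beside the value in U87mg (open squares), with bars of 1 standard error, ordered by the DAOY value. The DAOY estimates are above 0 in 27 of 32 genes, and EGR1 is the member with the highest U87mg value (1.55).

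Promoters of named genes, higher and lower, were read from RefSeq (GRCh38.p14, 250 bases before to 50 bases after the annotated start). They were searched on both strands for the CArG box bound by serum response factor, the TEAD motif GGAATG, the AP-1 motif TGANTCA and the cyclic AMP response element TGACGTCA. Of 40 genes looked up (the 25 named by the rules above and the members of the immediate early, ERK feedback and YAP/TAZ lists at an unadjusted p under 0.05), 28 had an entry. CYR61, CHKA, NR4A2, FOSL1, MYC and ARC were among those without one, so their promoters were not searched. The 5 promoters shown are those of higher genes of these lists or of the leading 12 in which a CArG box, a response element or a repeated TEAD motif was found, with the matched letters in capitals.
EGR1 promoter, chr5:138465229-138465528, plus strand: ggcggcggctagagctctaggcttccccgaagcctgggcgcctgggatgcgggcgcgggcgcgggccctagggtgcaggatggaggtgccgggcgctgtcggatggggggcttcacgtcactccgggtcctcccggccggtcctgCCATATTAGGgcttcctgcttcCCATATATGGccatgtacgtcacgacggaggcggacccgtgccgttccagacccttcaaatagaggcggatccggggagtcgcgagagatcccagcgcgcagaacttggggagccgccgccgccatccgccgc
PPP1R15A promoter, chr19:48872171-48872470, plus strand: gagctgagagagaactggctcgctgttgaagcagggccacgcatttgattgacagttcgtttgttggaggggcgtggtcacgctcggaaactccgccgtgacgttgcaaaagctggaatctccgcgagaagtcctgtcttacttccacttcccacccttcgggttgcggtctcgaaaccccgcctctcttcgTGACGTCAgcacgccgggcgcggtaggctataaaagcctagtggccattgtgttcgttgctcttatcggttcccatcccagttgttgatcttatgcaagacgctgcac
MAFF promoter, chr22:38201744-38202043, plus strand: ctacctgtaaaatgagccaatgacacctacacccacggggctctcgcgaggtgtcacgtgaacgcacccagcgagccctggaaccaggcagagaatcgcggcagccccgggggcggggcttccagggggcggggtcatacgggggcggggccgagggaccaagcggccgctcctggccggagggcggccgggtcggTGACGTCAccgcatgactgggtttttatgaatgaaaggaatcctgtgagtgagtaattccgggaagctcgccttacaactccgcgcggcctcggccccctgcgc
DUSP8 promoter, chr11:1572222-1572521, minus strand: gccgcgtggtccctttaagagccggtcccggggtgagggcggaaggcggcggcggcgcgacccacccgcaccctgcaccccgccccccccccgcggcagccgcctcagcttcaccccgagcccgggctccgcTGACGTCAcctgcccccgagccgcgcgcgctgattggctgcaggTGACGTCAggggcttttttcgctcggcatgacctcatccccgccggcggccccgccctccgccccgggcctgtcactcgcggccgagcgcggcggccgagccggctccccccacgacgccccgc
NUAK2 promoter, chr1:205321696-205321995, minus strand: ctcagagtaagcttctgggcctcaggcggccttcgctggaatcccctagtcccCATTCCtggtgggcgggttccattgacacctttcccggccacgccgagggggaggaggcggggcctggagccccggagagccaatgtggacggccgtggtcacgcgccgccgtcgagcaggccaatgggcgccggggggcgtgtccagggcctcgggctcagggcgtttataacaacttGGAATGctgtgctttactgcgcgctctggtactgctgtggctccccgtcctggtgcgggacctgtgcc
The EGR1 window held CArG boxes starting at -105 and -83 from the annotated start. The response element was found in 3 of the 28 promoters, those of PPP1R15A (starting at -58), MAFF (-54) and DUSP8 (-118 and -74), and in 1.85% of all 35116 promoters. A CArG box was found in 1 of the 28 (EGR1) and in 1.29% of all promoters, GGAATG in 4 (SPRY4, LATS2, NUAK2 and the lower gene FLRT3) and in 14% of all, and TGANTCA in 1 (LRRC8E) and in 7.71% of all. These are matches of letters in a short window and no binding was measured.

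Of the ERK feedback genes, 4 of 22 tested were higher at an unadjusted p under 0.05 (18.2%, against 1.38%) and 0 were lower, with a list median of 0.11. DUSP7, a phosphatase of ERK, was at 19.9, 15.6 and 17.1 CPM at 0 h and at 27.8, 24.0 and 22.8 CPM at 2 h (0.51 ± 0.18). SPRY2 was at 31.6, 23.1 and 29.1 CPM and at 35.1, 39.0 and 50.9 CPM (0.58 ± 0.20), and SPRY4 is given above. DUSP8, a phosphatase of JNK and p38, had few counts, with 0.227, 0.813 and 1.77 CPM and then 2.68, 2.98 and 2.2 CPM (1.47 ± 0.53). The groups did not overlap in these 4 (18.2% of the list, against 3.18% of all genes), nor, with 2 h lower, in SPRY1 (4.55%, against 3.74%), the Sprouty member with the lowest log2 fold change of the list (mean 0.912 CPM at 0 h and 0.458 CPM at 2 h, -0.97, unadjusted p = 0.18 by edgeR's quasi-likelihood test). The feedback genes DUSP6 (275, 127 and 139 CPM, then 171, 198 and 157 CPM), DUSP1 (-0.10), SPRED1 (0.04), ETV5 (0.03) and ERRFI1 (0.02) showed no such separation. The median of this list depended on single libraries: it was 0.26 without 0 h replicate 0 and -0.02 without 0 h replicate 1, and 2 members were higher without 0 h replicate 1 against 3 to 5 without any other of the 6 libraries.

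Of the YAP/TAZ target genes, 5 of 23 were higher at an unadjusted p under 0.05 (21.7%, against 1.38%) and 0 were lower. These were CYR61 and AMOTL2 (above), the LIM protein gene AJUBA (30.8, 24.2 and 26.8 CPM, then 34.7, 35.8 and 35.7 CPM, 0.38 ± 0.15), the Hippo kinase gene LATS2 (34.1, 30.0 and 28.6 CPM, then 41.4, 39.4 and 51.0 CPM, 0.51 ± 0.19) and the kinase gene NUAK2 (0.84 ± 0.33, overlapping groups). AMOTL2, AJUBA and LATS2 encode proteins known to restrain YAP or its kinase. The defining target CTGF went with none of them, at 282, 162 and 141 CPM and then 209.9, 217 and 206 CPM (0.11, unadjusted p = 0.69 by edgeR's quasi-likelihood test), and ANKRD1 (-0.08), AXL (-0.00) and MYOF (0.01) were also near 0. The list median was 0.07, close to the 0.00 of all genes, and the count of 5 depended on single libraries, with 2 higher members without 0 h replicate 2, 3 without 0 h replicate 1, 2 h replicate 0 or 2 h replicate 2, and 6 without 0 h replicate 0.

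Single members of other lists also lay higher. In the integrated stress response, ATF4, its central transcription factor, was at 137, 169 and 180.4 CPM and then at 276, 209.6 and 216 CPM (0.53 ± 0.16), and PPP1R15A was higher, but the ATF4 target ASNS (asparagine synthetase) was lower (55.6, 38.9 and 47.9 CPM, then 37.3, 36 and 34.4 CPM, -0.40 ± 0.17). These were 2 higher members (9.52%, against 1.38% of all genes) and 1 lower (4.76%, against 1.38%) of 21, and the list median was -0.00. Of the splicing regulators, 2 of 29 were higher (6.9%, against 1.38%, list median -0.01), KIAA0907 and the kinase of SR proteins CLK1 (58.8, 62.4 and 60.8 CPM, then 79.6, 89.6 and 116 CPM, 0.65 ± 0.20). Of 13 snoRNA host genes, 12 had a log2 fold change above 0 (50.3% of all genes did, median 0.23) and 2 were higher at an unadjusted p under 0.05 (15.4%, against 1.38%). SNHG3 was at 30.6, 35.1 and 31.3 CPM and at 43.9, 56.7 and 50.8 CPM (0.64 ± 0.17), and SNHG7 at 4.32, 7.48 and 8.55 CPM and at 11.9, 14.7 and 14.5 CPM (1.01 ± 0.27). The best known hosts, GAS5 (0.13) and SNHG1 (0.06), were near 0.

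Both NOTCH1 (6.37, 9.76 and 8.75 CPM, then 16.1, 13.2 and 12.7 CPM, 0.75 ± 0.23) and NOTCH3 (37.5, 38.2 and 44.9 CPM, then 71.6, 54.7 and 48.3 CPM, 0.53 ± 0.19) were higher, the only members of 19 Hedgehog and Notch genes at an unadjusted p under 0.05 (10.5%, against 1.38% of all genes higher). In the other lists of this paragraph, 1 member in a direction was a share of 3.57% to 6.25%, against 1.38% of all genes. Counts of 1 are not read as a result about the list. Among ion channels, KCNN4, a calcium-activated potassium channel, was at 2.84, 3.90 and 3.75 CPM and at 8.03, 6.85 and 5.10 CPM (0.92 ± 0.28), the 1 member of 28 past that p. The clock repressor NR1D1 (0.73 ± 0.24, 1 of 16 clock genes) and the glycolytic regulator PFKFB4 (0.54 ± 0.24, 1 of 23 hypoxia and glycolysis genes) were higher too. Among 28 PI3K, AKT and mTOR components, the adaptor IRS2 was higher (10.9, 11.4 and 13.3 CPM, then 15.6, 14.9 and 26.0 CPM, 0.66 ± 0.28) and the regulatory subunit PIK3R1 was lower (111, 109 and 88.3 CPM, then 83.8, 73.3 and 86.4 CPM, -0.34 ± 0.15), while AKT1 (0.20), MTOR (0.11) and PIK3CG (-0.25), which encodes PI3Kγ, did not reach it.

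The lower genes were led by RP11-34P1, a processed pseudogene on chromosome 5 (160258253 to 160258585, plus strand) so that its reads are not certain to be separate from those of a parent gene. It was at 42.1, 12.5 and 13.2 CPM at 0 h and at 3.47, 5.06 and 3.01 CPM at 2 h (-2.54 ± 0.47), and was called by DESeq2 (adjusted p = 0.000364) but not by edgeR's quasi-likelihood test (adjusted p = 0.999, range over the alternatives 0.000212 to 1). Without 0 h replicate 0, the library with the highest value, the log2 fold change was -1.73. RGS2, which speeds the shutdown of Gq proteins, was at 52.6, 62.9 and 35.4 CPM and at 24.1, 23.8 and 30.7 CPM (-0.94 ± 0.25). FLRT3, an adhesion protein of FGF receptor signaling, was low in both groups (2.27, 3.01 and 1.15 CPM, then 0.595, 0.893 and 0.348 CPM, -1.78 ± 0.48). TPTE, a testis-type phosphatase homolog, had 9.67, 7.40 and 7.61 CPM and then 4.16, 4.17 and 4.98 CPM (-0.89 ± 0.23). Further lower genes were the noncoding LINC00847 (-0.98 ± 0.27), C8orf48 (-1.45 ± 0.39) and RP11-762I7 (-2.27 ± 0.62), a name that pools 2 annotated genes and had 26.0 CPM in 0 h replicate 0 against 5.85 and 6.88 CPM in the other 0 h libraries. Without that library its log2 fold change was -1.26.

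The other 5 of the 12 leading lower genes had zinc finger symbols, as did 0 of the 12 leading higher ones. Most such genes encode C2H2 zinc finger DNA-binding proteins, many with a KRAB repressor domain. ZFP62 was at 32.8, 33.6 and 31.0 CPM at 0 h and at 17.0, 22.1 and 20.3 CPM at 2 h (-0.71 ± 0.16). ZNF623 had 43.1, 34.5 and 37.6 CPM and then 24.7, 24.9 and 20.2 CPM (-0.72 ± 0.18), and ZKSCAN3, a repressor of autophagy genes, had 10.7, 10.7 and 11.8 CPM and then 6.05, 6.35 and 5.21 CPM (-0.91 ± 0.23). In all 3 the groups were tight and apart in CPM. In TPM, ZFP62 averaged 20.6 at 0 h and 18 at 2 h, ZNF623 11.5 and 8.31, and ZKSCAN3 6.01 and 3.18. The smallest changes over the alternatives were -0.19 for ZFP62, -0.42 for ZNF623 and -0.75 for ZKSCAN3. ZNF253 was at 14.9, 10.2 and 8.75 CPM and at 4.56, 6.05 and 5.91 CPM (-1.03 ± 0.27), and ZNF572 at 2.84, 1.63 and 2.19 CPM and at 0.397, 0.595 and 0.927 CPM (-1.78 ± 0.45).

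The whole family was then taken by symbol (ZNF, ZFP without the ZFP36 genes, ZKSCAN and ZSCAN), a list made after these values were seen and described without a test. Of 506 genes tested, 52 were lower at an unadjusted p under 0.05 (10.3%, against 1.38% of all genes) and 4 were higher (0.791%, against 1.38%). They made up 24.5% of the lower genes at that p but 3.29% of all genes tested. In 101 of them the groups did not overlap with 2 h lower (20%, against 3.74%), and 72.5% had a log2 fold change below 0, against 49.7% of all genes. The shift was small, with a median of -0.19, and members further down the list resembled the leading ones: ZNF19 averaged 5.05 CPM at 0 h and 1.46 CPM at 2 h (-1.77), ZNF772 17.2 and 9.12 CPM (-0.91), ZNF181 19.1 and 11.7 CPM (-0.71) and ZFP37 20.7 and 12.2 CPM (-0.75). By library, the median deviation of the family was 0.24, 0.04 and 0.05 on the log2 scale at 0 h and -0.18, 0.00 and -0.07 at 2 h, so a large part of the difference stood in 0 h replicate 0. Without that library 26 of 507 were lower (5.13%, against 1.06% of all genes in that fit), with a median of -0.12. The count was 34 without 2 h replicate 0, 32 without 2 h replicate 2 and 49 to 71 without any other of the 6 libraries. With limma on log2(TPM + 1) or log2(TPM + 0.1) it was 30 and 26.

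**Figure D4:**
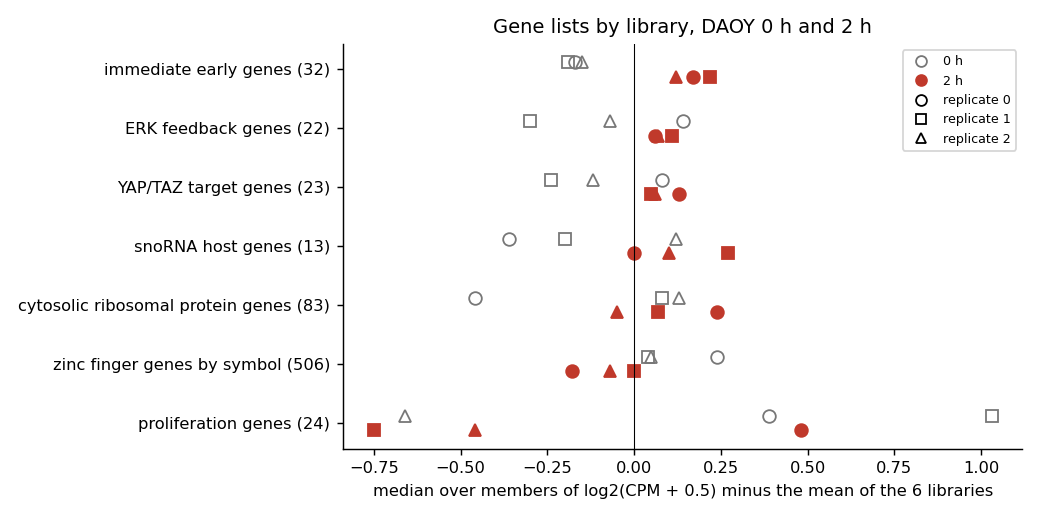
Median over the members of each list (number tested in brackets) of log2(CPM + 0.5) minus the member's mean over the 6 libraries, for the 3 libraries at 0 h (open grey) and at 2 h (filled red), with the replicate given by the shape. Immediate early genes keep the groups apart (-0.19 to -0.15 against 0.12 to 0.22), zinc finger genes do so with small differences, and proliferation genes divide the libraries across the groups (-0.66 to 1.03 at 0 h, -0.75 to 0.48 at 2 h).

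Proliferation genes had the lowest list median of all lists, -0.55. However, 0 of 24 had an unadjusted p under 0.05 (2.75% of all genes did). In 0 did the groups stay apart (3.18% of all genes did so with 2 h higher and 3.74% with 2 h lower). The DNA topoisomerase gene TOP2A was at 1094, 1639 and 424 CPM at 0 h and at 884, 393 and 491 CPM at 2 h (-0.84, unadjusted p = 0.14 by edgeR's quasi-likelihood test). The mitotic cyclin gene CCNB1 was at 241, 404 and 153 CPM and at 241, 133 and 126 CPM (-0.68). Without 2 h replicate 0 the median was -1.06, and without 0 h replicate 1 it was -0.19. The count of lower members was 6 without 0 h replicate 2, 3 without 2 h replicate 0 and 9 when no filter on low counts was applied. The replication licensing genes MCM2 (0.14), MCM3 (0.02) and MCM5 (0.05) were near 0 in the mean over the same spread.

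Several lists that bear on cell stress or on the study's pathways showed 0 members at an unadjusted p under 0.05: ErbB receptors and ligands (11 tested), the TGF-beta and BMP pathway (27), heat shock and chaperone genes (19), NRF2 and metallothionein genes (17), NF-kB, cytokine and chemokine genes (24), cholesterol and fatty acid synthesis (23), MRTF/SRF cytoskeletal genes (16), the motility array genes (79), mitochondrial genome genes (15) and cytosolic ribosomal protein genes (83, of which 72 above 0). Their medians were between -0.06 and 0.15. Over all genes tested the share at that p was 2.75%, so a count of 0 is not read as a result about a list. TGFBR2, the type II TGF-beta receptor (chromosome 3, 30606502 to 30694142, plus strand), was at 70.8, 43.8 and 66.0 CPM and at 50.4, 60.9 and 65.6 CPM as a gene sum (-0.03, 95% interval -0.45 to 0.39). EGFR was at 325 and 328 CPM (0.01), ERBB2 at 11 and 13.3 CPM (0.27). The heat shock genes HSPA1A (-0.02, 95% interval -0.76 to 0.71), HSPH1 (-0.07, -0.50 to 0.37) and DNAJB1 (0.32, -0.05 to 0.69) overlapped between the groups.

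Other listed genes at an unadjusted p under 0.05 were lower. The nuclear noncoding RNA NEAT1, the scaffold of paraspeckles, was at 84.3, 113 and 57.6 CPM and at 29.9, 61.6 and 55.6 CPM (-0.79 ± 0.30), with 1 value of 2 h above the lowest of 0 h. The p53 target TP53INP1 was at 30.8, 29.6 and 29.6 CPM and at 18.6, 26.8 and 20.6 CPM (-0.45 ± 0.18). NEAT1 was the 1 lower member of 5 nuclear-retained RNAs (20%, against 1.38% of all genes) and TP53INP1 that of 15 p53 targets (6.67%). In these lists 2 and 5 members were above 0, with MIR22HG (0.59) and GADD45B (0.76) highest. A count of 1 is not read as a result about either list. Among lineage markers, SOX9 was at 26.8, 24.0 and 25.1 CPM and at 14.7, 19.8 and 15.4 CPM (-0.60 ± 0.18), and TWIST1 at 23.5, 20.6 and 20.3 CPM and at 18.5, 15.2 and 14.4 CPM (-0.42 ± 0.18). They were the 1 lower member of 11 progenitor and granule-lineage markers (9.09%, against 1.38% of all genes) and of 10 mesenchymal markers (10%). In the first list GLI2 (0.26) and PTCH1 (0.05) and in the second PDGFRB (0.51), THY1 (0.20) and COL1A1 (0.14) had the opposite sign, none at an unadjusted p under 0.05. Of 22 replication histone genes tested, 1 was higher (4.55%, against 1.38% of all genes) and 2 were lower (9.09%, against 1.38%), and the groups did not overlap in 2 with 2 h higher (9.09%, against 3.18%) and in 6 with 2 h lower (27.3%, against 3.74%). However, the near-identical HIST2H4A (2.42) and HIST2H4B (-1.60) had opposite signs, and their reads cannot be told apart with certainty.

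The same 2 h exposure in U87mg, a glioblastoma line given the same field, gave 0 called genes of 14106 (0%), with 1239 at an unadjusted p under 0.05 (8.78%, of which 4.85% higher and 3.93% lower). The test of the difference between the 2 h changes of both lines, in a fit of all 18 libraries, had 0 of 16482 genes below an FDR of 0.05 (smallest adjusted p 0.62) and 1055 at an unadjusted p under 0.05 (6.4%), and DESeq2 called 2. Of the 12 leading higher genes of DAOY, 10 had a log2 fold change above 0 in U87mg, with a median of 0.15. Of all genes tested in U87mg, 52.1% were below 0, with a median of -0.02. CYR61 was the 1 gene of the 12 at an unadjusted p under 0.05 there (0.70 ± 0.21), and its difference between the lines was 0.61 ± 0.37. KIAA0907 was at 0.01 ± 0.15 in U87mg (difference 0.70 ± 0.25, unadjusted p = 0.0118 by edgeR's quasi-likelihood test) and LRRC8E at -0.11 ± 0.21 (difference 0.96 ± 0.30, unadjusted p = 0.00527). Of the 9 leading lower genes tested in U87mg, 6 were below 0 (52.1% of all genes there), ZNF623 most clearly (-0.46 ± 0.14). The largest difference among the 24 was that of RP11-34P1 (-3.04 ± 0.59, unadjusted p = 7.16e-05, adjusted p = 0.62). An unadjusted p under 0.05 for this difference was found in 7 of the 12 higher and 5 of the 12 lower genes. However, the 24 were chosen for their change in DAOY, which is part of the difference. Their unadjusted p-values are therefore not tests of a difference between the lines.

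The median of the immediate early list was -0.08 in U87mg against 0.37 in DAOY, and those lists were not compared by a test. In U87mg 3 members were higher and 3 were lower at an unadjusted p under 0.05. EGR1 had the highest U87mg value of the list (1.55 ± 0.38, against 0.78 in DAOY), whereas FOSL1 (-0.40), JUNB (-0.27), IER2 (-0.15) and NR4A1 (-0.37) were below 0 there. For FOSL1 and IER2 the difference between the lines was 1.05 (unadjusted p = 0.00184 by edgeR's quasi-likelihood test) and 0.93 (unadjusted p = 0.00614), neither past the adjustment. Both were named for their change in DAOY, so the same limit holds. ZFP36L1 was lower in both lines (-0.50 in DAOY and -0.49 in U87mg). For the zinc finger genes, 378 were tested in U87mg, of which 51.9% were below 0 (52.1% of all genes there), with a median of -0.02.

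The 8 h libraries of DAOY, which were compared with the same 0 h libraries and are therefore not independent of the values above, were read for the leading genes and for a pair of list members. CYR61 was at 167, 250.3 and 117 CPM at 8 h (log2 fold change from 0 h 2.01) and KIAA0907 at 169, 242 and 198 CPM (1.89), both above their 2 h libraries except for 1 library of CYR61. CHKA was at 46.5, 54.0 and 43.7 CPM (1.48). LRRC8E was at 17.6, 14.8 and 16 CPM at 8 h (0.35). The other leading higher genes had log2 fold changes from 0 h between 0.49 (ITPRIP) and 1.52 (SULT1A3). Of the 12 leading lower genes, RP11-34P1 was at 13.2, 15.6 and 20.2 CPM (-0.47) and TPTE at 8.2, 7.76 and 8.21 CPM (-0.03), both within their range at 0 h. The other 10 had log2 fold changes from 0 h between -3.35 (ZNF572) and -0.62 (ZKSCAN3 and ZNF253), with FLRT3 at -1.95, LINC00847 at -1.36, C8orf48 at -1.34 and RGS2 at -0.76. The pair of list members read at 8 h was NR1D1 (-0.17) and NEAT1 (0.07), and they do not stand for the other list members.

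Single transcripts were read second. Of 41336 transcripts tested, 0 had an FDR below 0.05 (0%, edgeR's quasi-likelihood test), and 1269 had an unadjusted p under 0.05 (3.07%, of which 1.47% higher and 1.6% lower), while DESeq2 called 176. The spread was larger than for gene sums, with a common biological coefficient of variation of 0.833 against 0.256. Of 2910 transcripts at 1 TPM or more whose groups did not overlap (4.45% of all transcripts tested did so with 2 h higher and 3.85% with 2 h lower), 655 had a log2 fold change of 2 or more in size, and 623 of these belonged to genes whose sum had one under 0.58 (median 0.14). Most of these 655 transcripts were thus in genes whose sums differed little, but so did gene sums in general. Over all 15396 gene sums tested, the median size of the log2 fold change was 0.16. The small gene sums are therefore not read as a result about these transcripts.

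**Figure D5:**
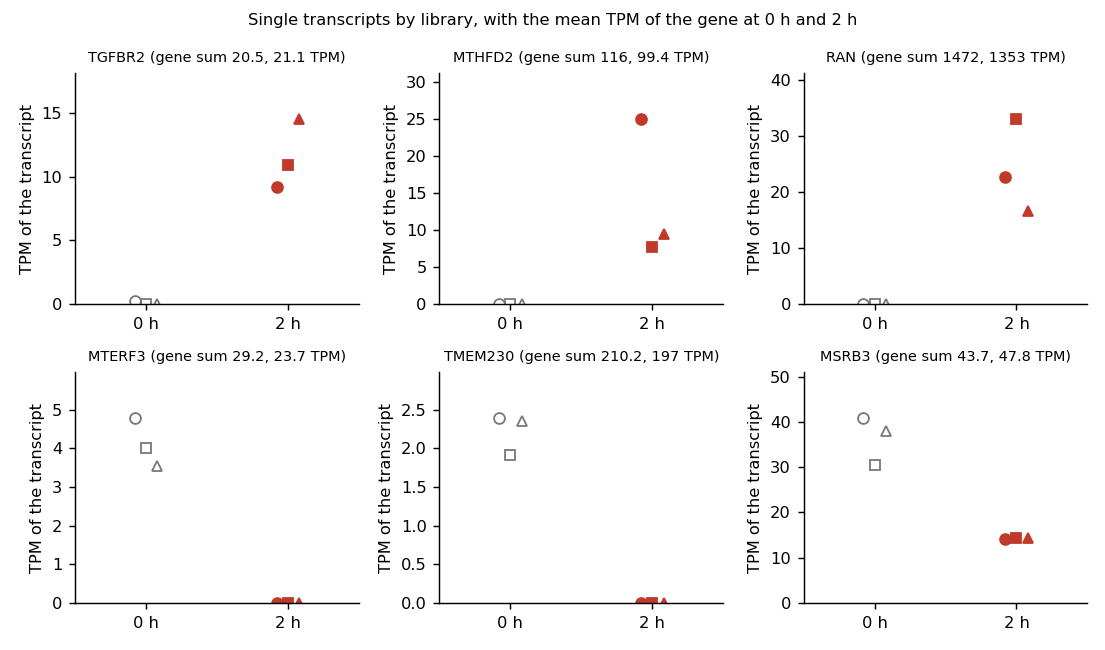
TPM of 1 transcript (vertical axis, from 0) in each library at 0 h (open grey) and 2 h (filled red) for 6 genes, with the replicate given by the shape and the mean TPM of the whole gene at both times in each title. The transcripts of TGFBR2, MTHFD2 and RAN are at or near 0 in all 0 h libraries and those of MTERF3 and TMEM230 at 0 in all 2 h libraries, whereas the gene sums, such as 20.5 and 21.1 TPM for TGFBR2, lie close together.

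The TGFBR2 transcript ENST00000295754 (chromosome 3, 30606502 to 30694134, 7 exons) was at 0.212, 0.0257 and 0.00400 TPM at 0 h and at 9.17, 10.9 and 14.5 TPM at 2 h, while the gene was at 20.5 and 21.1 TPM. For ENST00000409601 of MTHFD2, a mitochondrial folate enzyme, the 0 h values were 0, 0.000917 and 0.0176 TPM and the 2 h values 25.0, 7.70 and 9.43 TPM, at least 50.5-fold higher against 3 counts per library, with the gene at 116 and 99.4 TPM. ENST00000541630 of RAN, the nuclear transport GTPase, likewise went from at most 0.0236 TPM to 22.7, 33.0 and 16.6 TPM (at least 66.9-fold) within a gene at 1472 and 1353 TPM. The transcripts leading in the other direction behaved alike. ENST00000522822 of MTERF3, a mitochondrial transcription regulator, was at 4.78, 4 and 3.55 TPM at 0 h and listed at 0 in every 2 h library (at least 8.3-fold lower), and ENST00000379283 of TMEM230 was at 2.39, 1.92 and 2.35 TPM and then listed at 0 (at least 6.88-fold lower). A transcript of MSRB3, a methionine sulfoxide reductase (ENST00000614640, chromosome 12, 65278987 to 65466898, 7 exons), had counts in all libraries, with 40.8, 30.6 and 38.1 TPM and then 14.2, 14.3 and 14.4 TPM (-1.42 ± 0.24, adjusted p = 0.598 in edgeR's quasi-likelihood test), and its gene sum had a log2 fold change of -0.03. The remaining leading transcripts, of CH507-9B2, PHC2, MFSD10, AIF1L, ADPGK and ESYT2, were near 0 in all libraries of one group as well. Of the estimated counts above 0, 87.8% were not whole numbers, since reads that fit several transcripts were divided among them, and the part of that division in these differences was not tested.

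In CYR61 and KIAA0907, in contrast, the main transcript differed in the same direction as the gene sum. ENST00000451137 of CYR61 (5 exons) was at 36.9, 26.8 and 30.4 TPM and at 82.3, 69.6 and 96.3 TPM, a log2 fold change of 1.34 as for the gene. ENST00000368321 of KIAA0907 (14 exons) was at 17.4, 19.4 and 26.2 TPM and at 38.1, 41.8 and 56.9 TPM (1.08 ± 0.22, against 0.73 for the gene).

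In 11 gene sums the log2 fold change was 3 or more in size, a limit set after the values were seen. The groups stayed apart in 3 of them, all with few counts. These were RP11-1280N14 (at most 38.7 counts in a library), RP11-248G5 (22.5) and RP11-864G5 (33.1). CXCR5, a chemokine receptor, had 0, 28.3 and 57.6 estimated counts at 0 h and 0 in every 2 h library. The processed pseudogene TCEA1P2 had 0 counts in every 0 h library and 51.8, 37.6 and 0 at 2 h, and the mitochondrial pseudogene MTND1P23 had 1204 counts in 0 h replicate 0 against 22.6 and 7.98 in the other 0 h libraries and 9.98, 16.9 and 18.8 at 2 h. In CXCR5, TCEA1P2 and MTND1P23 the groups overlapped, and 1 or 2 of the 6 libraries carried most of the counts.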

How the data were processed

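Libraries of polyA RNA (TruSeq Stranded mRNA) from 18 samples, of which 6 are compared here, were sequenced with single-end reads. Per the labels and methods, the authors trimmed reads (FastQC 2.0.0), assigned them to GENCODE 24 transcripts (GRCh38.p5) with kallisto 0.43.0 and tested transcripts with sleuth 0.28.1 in R 3.2.1. Whether kallisto used strand is not given in the sources used here. The deposited table holds, for 145326 transcripts, estimated counts and TPM per sample as the authors' kallisto run gave them, and the authors' own p-values, q-values and log fold changes, which were not used. No column belonged to another sample (0).

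Estimated counts were summed by gene name (32490 names, of which 18 lie on more than 1 chromosome, and clone-style names may pool loci) and rounded. Gene sums were fitted over the 9 DAOY libraries with edgeR 4.0.16 (filterByExpr, TMM, quasi-likelihood test, R 4.3.3), and 2 h was compared with 0 h. Transcripts were fitted likewise, U87mg separately, and the difference between lines over all 18 libraries. A call required an FDR (Benjamini-Hochberg) below 0.05 together with a log2 fold change of 1 or more in size. CPM are on TMM-scaled library sizes. The methods call the 3 samples of a group biological replicates chosen by quality. A p-value sets the difference between groups against the spread between samples within groups. That spread was estimated over all libraries of the fit, those at 8 h included. Library totals ranged from 8491703 to 11508606 estimated counts.

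Named genes were CYR61 and TGFBR2, which the study names for DAOY at 2 h, and KIAA0907, which was added to them. The others were the 12 higher and 12 lower gene sums of lowest p whose groups did not overlap. These had a mean of at least 1 CPM and a log2 fold change of 0.58 or more in size. For transcripts the rule took 6 in each direction with a mean of at least 1 TPM. Members of the gene lists are named with their values where they reached an unadjusted p under 0.05 or serve as defining members. The members and lists were chosen with earlier results of these data known, and the zinc finger list after its values were seen. Coordinates were joined by transcript identifier from GENCODE 29 on GRCh38 (99.2% of transcripts), and promoters came from RefSeq (GRCh38.p14). A fold against a group with 0 counts was computed against 3 counts per library and covers counting error only. Alternatives were DESeq2 1.42.0, limma 3.58.1 on log2(TPM + 1) and log2(TPM + 0.1), other size factors, filters, samples and dispersions, a replicate block, the FDR without a limit on the fold change, and leaving out each library. The scripts were tested on simulated counts.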

Additional observations from a re-analysis of the deposited data

How the results depend on the processing

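The count of called gene sums in DAOY, 0, became 1 with DESeq2 and 18 with no filter on low counts, and stayed at 0 with limma, the other size factors, the stricter filter, fewer or more samples, and as each library was left out. The fit without a filter tested 29792 gene sums, and the cause was not tested. For transcripts, where 0 were called, DESeq2 called 176, limma 8 (offset 1 TPM) and 25 (offset 0.1 TPM), the fit without a filter 3 and the fit of all 18 samples 6. In U87mg the count of 0 became 3 with DESeq2, 57 with no filter and 2 in the fit of only the 6 samples, and ranged from 0 to 71 as each library was left out, with 71 without 0 h replicate 0. The test of the difference between the lines, with 0 genes below the FDR, gave 2 with DESeq2 and 38 with no filter. The 424 gene sums at an unadjusted p under 0.05 became 887 with no filter and 646 in the fit of all 18 samples, and ranged from 315 to 819 as each library was left out. Of 1113 values of the 59 single genes under the alternatives, 1108 kept their direction. Most of these genes were named for their difference in these same libraries, which made a reversal unlikely. The 5 reversed values were all of TGFBR2, at 0.05 with limma on either TPM scale, 0.10 without 0 h replicate 0, 0.04 without 0 h replicate 2 and 0.08 without 2 h replicate 0, in a range of -0.23 to 0.10 as each library was left out. CYR61, NR4A2, RP11-34P1 and RP11-762I7 passed both criteria with no filter, and RP11-34P1 also with DESeq2. The replicate numbers did not pair the samples: the deviations of same-numbered 0 h and 2 h libraries correlated at -0.06, -0.20 and -0.17. Some differently numbered libraries did correlate, 0 h replicate 0 with 2 h replicate 2 at 0.302. Others were at 0.344 (0 h replicate 1, 2 h replicate 0) and 0.448 (0 h replicate 2, 2 h replicate 1). The remaining pairs of both groups were between -0.275 and -0.196. The source of this shared structure was not tested, and a block on the replicate number cannot take it up. With the replicate number as a block, 0 gene sums were called and 356 had an unadjusted p under 0.05, against 424 without it. The median interval reached 0.86 log2 units to either side at 1 to 10 CPM and 0.37 above 100 CPM, and the parts of depth and of the spread between samples in it were not tested.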
